A study of Mus musculus with 12 samples.

Results

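The genes described here are Tat, Hpd, Hgd, Gstz1, Fah, Hal, Uroc1, Tdo2 and Kmo, 9 enzyme genes of tyrosine, histidine and tryptophan breakdown, chosen by gene name, with earlier results of these data known. All 9 were found by symbol among the 16728 genes of the deposited table, and all 9 passed the filter on low counts. RNA was sequenced from primary hepatocytes isolated from the liver of C57BL/6 mice in a study whose title names iron overload. The 12 libraries formed 4 groups of 3: Fxr-/- cells treated with FAC (KO FAC), Fxr-/- cells treated with AC (KO AC), wild-type cells treated with FAC (WT FAC) and wild-type cells treated with AC (WT AC). FAC and AC were each given at 100 µM for 24 h, and all cells were kept in DMEM with fetal bovine serum. The labels do not expand FAC or AC, give no age or sex, do not describe the Fxr-/- allele, and leave unsaid whether each library had its own mouse or culture. The p-values below therefore measure only the spread between these libraries, which may be technical, and genotype cannot be told apart from the mice or isolation behind each set of cells.

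Liver cells are the main site where these amino acids are degraded. Tyrosine loses its amino group through tyrosine aminotransferase (Tat), is converted to homogentisate by 4-hydroxyphenylpyruvate dioxygenase (Hpd), and is then opened by homogentisate dioxygenase (Hgd), isomerised by maleylacetoacetate isomerase (Gstz1) and cleaved by fumarylacetoacetate hydrolase (Fah). Histidine is deaminated to urocanate by histidine ammonia-lyase (Hal), and urocanate is hydrated by urocanase (Uroc1). Tryptophan enters the kynurenine route through tryptophan dioxygenase (Tdo2), and kynurenine 3-monooxygenase (Kmo) adds a hydroxyl group to kynurenine on the branch that leads to NAD.

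The promoters of Hal, Hpd and Tat are shown because these 3 members followed the same order over the 4 groups. Each sequence is the 250 bases before the start used in RefSeq's promoter table (GRCm38.p6), which for Tat lies inside the annotated span of the gene, read 5′ to 3′ on the gene's own strand. Capitals mark matches, on either strand, to 1 of 8 searched motifs.
Hal, chr10:93488518-93488767, plus strand: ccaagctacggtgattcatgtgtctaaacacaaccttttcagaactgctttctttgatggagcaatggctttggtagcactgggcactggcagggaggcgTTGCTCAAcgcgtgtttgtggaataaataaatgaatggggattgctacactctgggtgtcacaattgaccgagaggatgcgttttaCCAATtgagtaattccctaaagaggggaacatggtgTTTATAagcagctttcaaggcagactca
Hpd, chr5:123182724-123182973, minus strand: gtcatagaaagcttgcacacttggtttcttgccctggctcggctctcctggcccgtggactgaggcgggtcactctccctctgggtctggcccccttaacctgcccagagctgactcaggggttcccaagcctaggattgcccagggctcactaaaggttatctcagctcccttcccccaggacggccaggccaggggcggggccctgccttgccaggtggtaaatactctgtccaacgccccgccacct
Tat, chr8:109990186-109990435, plus strand: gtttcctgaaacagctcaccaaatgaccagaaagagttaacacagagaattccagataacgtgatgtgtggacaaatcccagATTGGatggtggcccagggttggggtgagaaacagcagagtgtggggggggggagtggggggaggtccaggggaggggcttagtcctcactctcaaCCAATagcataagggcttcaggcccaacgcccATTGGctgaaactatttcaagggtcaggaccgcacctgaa
In the Hal window the capitals are a C/EBP match (TTGCNNAA), a CCAAT box and, nearest the start, a TATA box (TATAAA, here on the other strand). The Tat window holds 3 CCAAT boxes, and the Hpd window holds no match to any of the 8. Over the members, 6 of 9 had a CCAAT box, against 33.8% of 32851 RefSeq promoter windows of the same length. A TATA box was found in 3 of 9 members and in 12.4% of all windows, and the C/EBP motif in 2 of 9 members (Hal and Hgd) and in 9.56% of all windows. The nuclear receptor motif AGGTCA was found in 3 of 9 members (Uroc1, Hgd and Tdo2) and in 14.0% of all windows. The other searched motifs were the steroid receptor motif TGTTCT, the CRE-like TGACGTCA, the C/EBP-ATF element TGATGNAAN and the antioxidant element TGACNNNGC, which occurred in 16.1%, 1.55%, 3.44% and 10.2% of all windows and in 0 of 9 members. These matches describe the letters of the windows and no binding was measured.

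Library totals ranged from 16464494 to 18335700 estimated reads, and 12275 genes were tested with edgeR's quasi-likelihood test with Benjamini-Hochberg adjustment over all of them. A gene is said to have passed, risen or fallen at an adjusted p under 0.05. CPM are estimated reads scaled to the TMM-adjusted size of the library, and log2 fold changes are given ± SE. Nr1h4, which encodes Fxr, was read in every library, at 3.54, 4.45 and 4.89 CPM in KO FAC, 9.35, 6.97 and 7.45 in KO AC, 7.00, 6.95 and 7.69 in WT FAC and 13.0, 15.6 and 13.1 in WT AC. Under each treatment its level was lower in every KO library than in every WT library (−0.75 ± 0.16 under FAC and −0.81 ± 0.14 under AC, edgeR adjusted p = 0.00157 and 0.000535). These reads cover the whole gene and do not test the deletion. The first principal component held 59.2% of the variance and separated KO from WT. On the third (7.42%), KO AC 1 (13.5) and KO FAC 6 (27.7) lay apart from KO AC 2 (−14.6) and KO FAC 4 (−22.7), so results in KO cells are also given without KO AC 1 where they change. Of 10 hepatocyte markers 9 were in the table, none at 0 in any group, and albumin (Alb) averaged 10671 FPKM in KO FAC, 9384 in KO AC, 14825 in WT FAC and 11205 in WT AC.

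Per gene length, the members differed in level by more than an order of magnitude. In WT AC cells the highest mean FPKM was that of Tdo2 (30.1), followed by Gstz1 (26.4) and Fah (26.3), and the lowest was that of Uroc1 (0.28), with Hal at 0.593 and Kmo at 1.11. In KO FAC cells Hpd was the highest at 129 FPKM, followed by Fah (51.7), Tdo2 (44.8), Gstz1 (37.9) and Hal (36.5), and Uroc1 was again the lowest at 1.58. The summed FPKM of the 9 members ranged from 313 to 346 in KO FAC, 183 to 212 in KO AC, 113 to 120 in WT FAC and 91.6 to 94.3 in WT AC libraries.

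**Figure D1:**
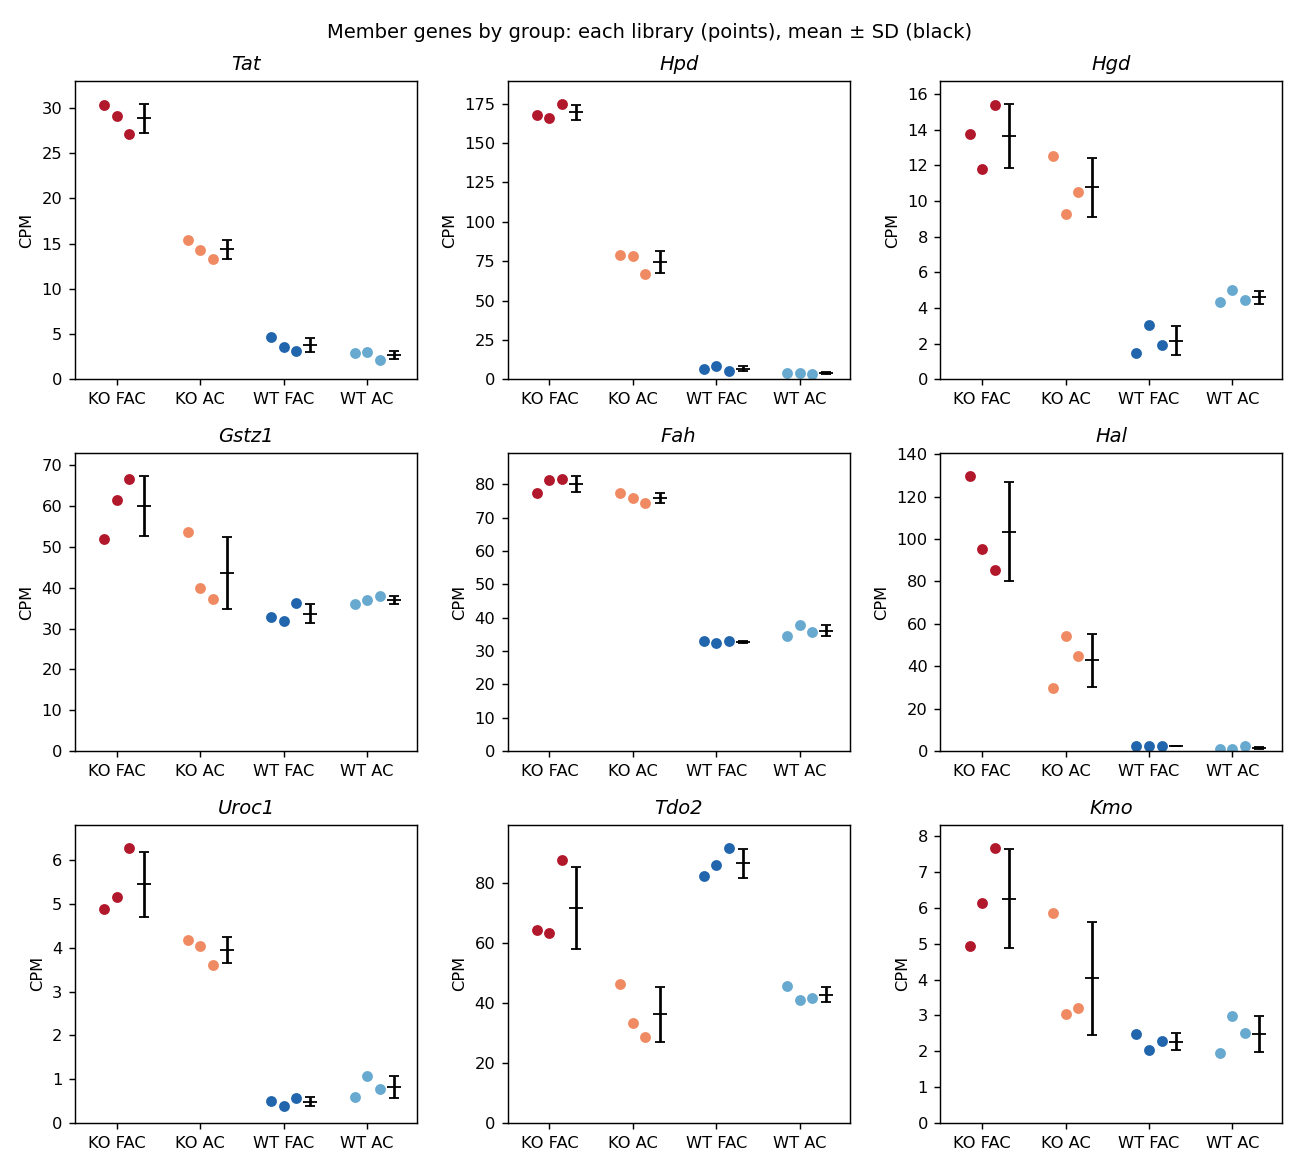
Level of each member in CPM (y axis, from 0) in the 12 libraries, by group (x axis), with the mean ± SD of 3 libraries in black. Tat, Hpd, Hal, Uroc1, Hgd, Fah and Kmo are higher in every KO library than in every WT library, and Tdo2 is higher in FAC than in AC libraries of both genotypes.

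The comparison of KO with WT cells asks how the enzymes differ without Fxr, under each treatment. Most of the members were higher in KO cells. Under FAC 8 of 9 rose and none fell, and under AC 6 of 9 rose and none fell. Over all tested genes, 49.5% passed under FAC and 42.9% under AC, in either direction. The median log2 fold change of the members was 2.65 under FAC and 1.22 under AC, against −0.01 and 0.00 (rounded) over all genes. The KO and WT libraries did not overlap for 8 of 9 members under FAC and 7 of 9 under AC, against 59.1% and 53.0% of all tested genes. The difference was largest for Hal and Hpd, which ranked 24 and 43 of 12275 by absolute log2 fold change under FAC and 30 and 44 under AC. Tdo2 did not pass in either comparison.

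In the tyrosine pathway, Tat (chromosome 8, 109986078 to 109999804), which starts tyrosine breakdown, had 30.3, 29.1 and 27.1 CPM in KO FAC, 15.4, 14.3 and 13.3 in KO AC, 4.68, 3.56 and 3.15 in WT FAC and 2.94, 2.98 and 2.13 in WT AC libraries. No group overlapped its neighbour in that order. Tat was 7.58-fold higher in KO under FAC (2.92 ± 0.15, edgeR adjusted p = 2.36e-09) and 5.34-fold higher under AC (2.42 ± 0.15, edgeR adjusted p = 4.19e-08). Hpd (chromosome 5, 123171807 to 123182723), the next enzyme, had 168, 166 and 175 CPM in KO FAC, 79.0, 78.0 and 66.5 in KO AC, 6.55, 8.27 and 5.28 in WT FAC and 4.31, 4.11 and 3.61 in WT AC libraries. Its groups were separate in the same order as those of Tat. The ratio of KO to WT for Hpd was 25.2 under FAC (4.66 ± 0.13, edgeR adjusted p = 1.09e-11) and 18.6 under AC (4.21 ± 0.14, edgeR adjusted p = 4.54e-11).

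Hgd (chromosome 16, 37579742 to 37632026), which opens the ring of homogentisate, had 13.8, 11.8 and 15.4 CPM in KO FAC, 12.5, 9.24 and 10.5 in KO AC, 1.47, 3.07 and 1.95 in WT FAC and 4.36, 5.03 and 4.43 in WT AC libraries. The KO FAC and KO AC libraries overlapped, while WT FAC lay below WT AC and both lay below KO. Hgd was 6.28-fold higher in KO under FAC (2.65 ± 0.21, edgeR adjusted p = 3.66e-07) and 2.33-fold higher under AC (1.22 ± 0.19, edgeR adjusted p = 0.000261). Fah (chromosome 7, 84585159 to 84605942), the last enzyme of the pathway, had 77.3, 81.3 and 81.7 CPM in KO FAC, 77.3, 75.9 and 74.3 in KO AC, 33.0, 32.5 and 32.9 in WT FAC and 34.5, 37.8 and 35.8 in WT AC libraries. Each KO library was above each WT library, with 2.44-fold more RNA under FAC (1.29 ± 0.06, edgeR adjusted p = 1.86e-09) and 2.10-fold more under AC (1.07 ± 0.06, edgeR adjusted p = 1.54e-08).

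Gstz1 (chromosome 12, 87147161 to 87164723), the isomerase between Hgd and Fah, had 52.0, 61.5 and 66.5 CPM in KO FAC, 53.7, 40.0 and 37.3 in KO AC, 32.8, 31.8 and 36.2 in WT FAC and 35.9, 36.9 and 37.9 in WT AC libraries. Neighbouring groups overlapped, and KO AC 1 stood above the other KO AC libraries. Gstz1 rose in KO under FAC (0.84 ± 0.13, 1.79-fold, edgeR adjusted p = 0.000115) and had 0.24 ± 0.13 under AC (edgeR adjusted p = 0.136). Exons of Pomt2 and Gm6566 lie across exons of Gstz1 on the opposite strand, and the labels do not tell if reads were counted by strand, so the Gstz1 counts are uncertain. Its estimated counts were not whole in 4 of 12 libraries, while those of the other members were whole in all 12.

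In the histidine pathway, Hal (chromosome 10, 93488768 to 93516761), its entry enzyme, had 129.8, 95.2 and 85.5 CPM in KO FAC, 29.5, 54.1 and 44.9 in KO AC, 2.37, 2.41 and 2.52 in WT FAC and 1.04, 1.19 and 2.24 in WT AC libraries. The 4 groups were separate in this order. Hal was 42.4-fold higher in KO under FAC (5.41 ± 0.29, edgeR adjusted p = 4.29e-08) and 28.7-fold higher under AC (4.84 ± 0.31, edgeR adjusted p = 2.89e-07). Nr1h4 also lies on chromosome 10. The part of sequence linked to the Fxr-/- allele in the Hal difference was not tested. Uroc1 (chromosome 6, 90333239 to 90364551), the next enzyme, had 4.88, 5.17 and 6.29 CPM in KO FAC, 4.19, 4.04 and 3.61 in KO AC, 0.508, 0.383 and 0.574 in WT FAC and 0.600, 1.08 and 0.766 in WT AC libraries. Its groups were separate as well, but with WT FAC the lowest. Uroc1 was 11-fold higher in KO under FAC (3.46 ± 0.25, edgeR adjusted p = 1.02e-07) and 4.80-fold higher under AC (2.26 ± 0.23, edgeR adjusted p = 4.96e-06). The WT FAC values of Uroc1 rest on 9, 7 and 10 reads, and only 1 of these 3 libraries was over the filter's level of 0.571 CPM.

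In the tryptophan pathway, Tdo2 (chromosome 3, 81958412 to 81975728), which opens the indole ring, had 64.2, 63.3 and 87.6 CPM in KO FAC, 46.3, 33.4 and 28.7 in KO AC, 82.1, 85.9 and 91.7 in WT FAC and 45.7, 40.8 and 41.7 in WT AC libraries. KO and WT libraries of each treatment overlapped. The difference between KO and WT was −0.27 ± 0.16 under FAC (95% interval −0.61 to 0.07, edgeR adjusted p = 0.166) and −0.24 ± 0.16 under AC (−0.59 to 0.11, edgeR adjusted p = 0.244). Without KO AC 1 the value under AC was −0.46 (edgeR adjusted p = 0.0153), and without KO FAC 6 the value under FAC was −0.44 (edgeR adjusted p = 0.0274), both past the threshold. Kmo (chromosome 1, 175632193 to 175660853) had 4.94, 6.15 and 7.68 CPM in KO FAC, 5.85, 3.04 and 3.20 in KO AC, 2.48, 2.03 and 2.29 in WT FAC and 1.96, 2.98 and 2.52 in WT AC libraries. Every KO library was above every WT library. Kmo rose in KO under FAC (1.46 ± 0.26, 2.76-fold, edgeR adjusted p = 0.000495) and had 0.70 ± 0.27 under AC (edgeR adjusted p = 0.0505). Without WT AC 2, KO AC 2 or KO AC 3 the value under AC passed (0.84, 0.86 and 0.84, edgeR adjusted p = 0.0475, 0.0321 and 0.0392). Without KO AC 1, the highest KO AC library for Kmo, it was 0.33 (edgeR adjusted p = 0.286).

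**Figure D2:**
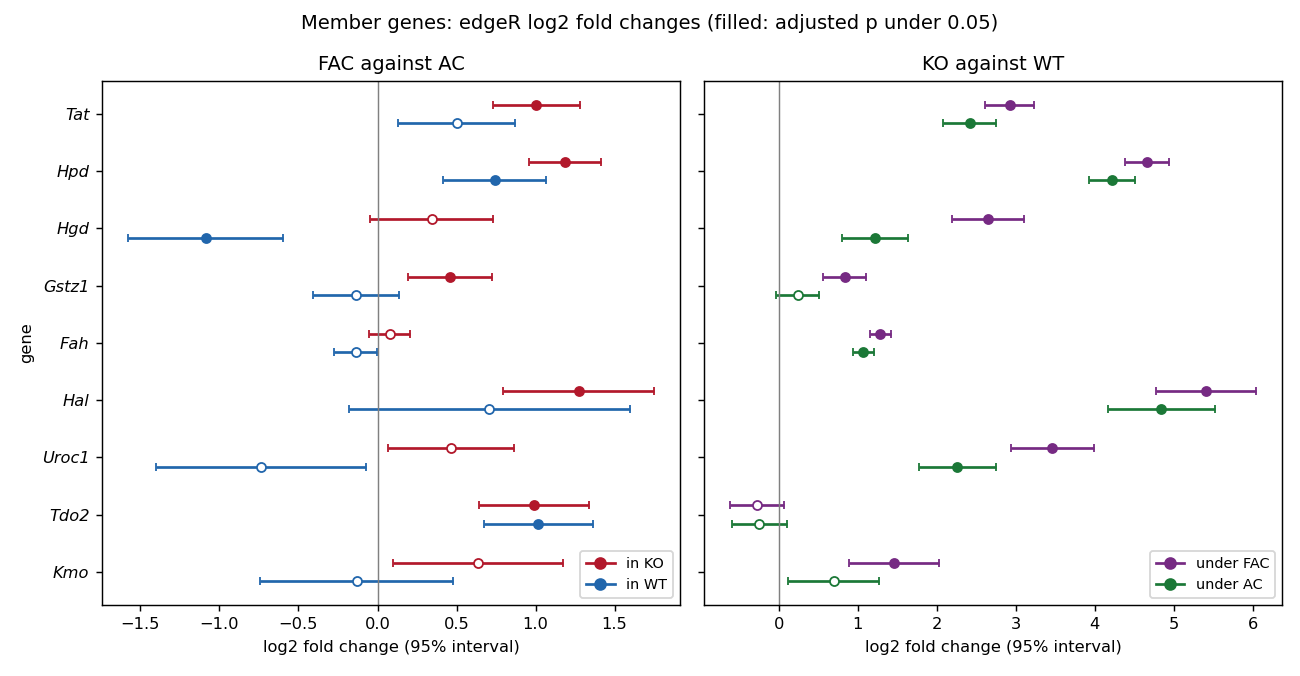
Log2 fold changes of the 9 members (x axis, points with 95% intervals) for FAC against AC in KO and in WT (left) and for KO against WT under FAC and under AC (right), with filled points at an edgeR adjusted p under 0.05. Hal and Hpd lie farthest right in the KO comparison, at 5.41 and 4.66 under FAC, and Hgd has its FAC effect below 0 in WT (−1.09) but not in KO (0.34).

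The comparison of FAC with AC asks how the members responded to FAC in each genotype. In KO cells 5 of 9 members rose with FAC (Hal, Hpd, Tat, Tdo2 and Gstz1) and none fell, where 29.6% of all tested genes passed in either direction. In WT cells Tdo2 and Hpd rose, Hgd fell and 6 of 9 members did not pass, where 17.2% of all tested genes passed. The median log2 fold change of the members was 0.64 in KO and −0.13 in WT, against 0.00 (rounded) over all genes in both. Libraries of FAC and of AC were separate for 5 of 9 members in KO and 7 of 9 in WT, against 38.8% and 43.2% of all tested genes. These comparisons share libraries with those of KO and WT above.

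Tdo2 changed by a like amount in both genotypes, 1.99-fold higher with FAC in KO (0.99 ± 0.16, edgeR adjusted p = 0.000854) and 2.03-fold higher in WT (1.02 ± 0.16, edgeR adjusted p = 0.00102). All 3 FAC libraries were above the 3 AC libraries in each genotype. The difference of the FAC effects was −0.03 ± 0.22, with a 95% interval of −0.51 to 0.46 (edgeR adjusted p = 0.963). Hpd was 2.27-fold higher with FAC in KO (1.19 ± 0.11, edgeR adjusted p = 1.05e-05) and 1.67-fold higher in WT (0.74 ± 0.15, edgeR adjusted p = 0.00455). The difference for Hpd was 0.44 ± 0.19, which did not pass (edgeR adjusted p = 0.21).

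Hal and Tat rose with FAC in KO, by 1.27 ± 0.22 (2.42-fold, edgeR adjusted p = 0.00149) and 1.01 ± 0.13 (2.01-fold, edgeR adjusted p = 0.000115). In WT their libraries also did not overlap, at 0.71 ± 0.41 for Hal (edgeR adjusted p = 0.262) and 0.50 ± 0.17 for Tat (edgeR adjusted p = 0.0625), and neither passed. Without WT FAC 6 the WT value of Tat passed (0.62, edgeR adjusted p = 0.0449). The differences between genotypes were 0.56 ± 0.47 for Hal and 0.51 ± 0.22 for Tat, and neither of these passed (edgeR adjusted p = 0.556 and 0.219). Gstz1 rose with FAC in KO (0.46 ± 0.12, 1.38-fold, edgeR adjusted p = 0.0142), although its FAC and AC libraries overlapped there. It no longer passed when AC 2, AC 3 or FAC 6 of KO was left out (edgeR adjusted p = 0.0618, 0.0741 and 0.0533), when KO libraries were fitted alone (edgeR adjusted p = 0.067) and with TPM values (limma adjusted p = 0.0714). In WT Gstz1 had −0.14 ± 0.13 (edgeR adjusted p = 0.506). The difference of its FAC effects was 0.59 ± 0.18 (edgeR adjusted p = 0.0887), and passed without KO AC 1 or KO FAC 4 (0.77 and 0.70, edgeR adjusted p = 0.00959 and 0.0364).

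Hgd fell with FAC in WT by 1.09 ± 0.23 on the log2 scale (2.12-fold lower, edgeR adjusted p = 0.00545), and had 0.34 ± 0.18 in KO (edgeR adjusted p = 0.168). Over the members, the median difference of the FAC effects (KO minus WT) was 0.56, against −0.01 over all genes. Hgd was the only member, of 9, whose difference passed, at 1.43 ± 0.29 (edgeR adjusted p = 0.0228), where 3.15% of all tested genes passed. The adjusted p of this difference was above 0.05 when AC 2, AC 3, FAC 4 or FAC 6 of WT, or AC 2 or AC 3 of KO, was left out (0.0613, 0.0606, 0.0585, 0.0657, 0.052 and 0.0533, edgeR). Uroc1 had 0.47 ± 0.19 with FAC in KO and −0.74 ± 0.31 in WT, and neither these (edgeR adjusted p = 0.0752 and 0.12) nor their difference of 1.20 ± 0.36 (edgeR adjusted p = 0.0892) passed. Kmo had 0.64 ± 0.25 in KO and −0.13 ± 0.28 in WT (edgeR adjusted p = 0.07 and 0.798), and without KO AC 1 it rose in KO, by 1.0 (edgeR adjusted p = 0.00452), as it did without KO FAC 4, by 0.79 (edgeR adjusted p = 0.0335). Fah was close to 0 in both, at 0.08 ± 0.06 in KO and −0.14 ± 0.06 in WT (edgeR adjusted p = 0.357 and 0.156).

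The other 14 listed genes of the pathways place the members among their neighbours, and 13 of them were tested (Ido1 was below the filter). The counts for the pathway and oxygenase lists below stand against the shares of all tested genes that passed in either direction. These were 49.5% in KO against WT under FAC, 42.9% under AC, 29.6% with FAC in KO and 17.2% with FAC in WT. Over the 7 listed phenylalanine and tyrosine genes, which include the 5 tyrosine members, 6 rose in KO under FAC and 5 under AC, 4 rose with FAC in KO, and in WT 1 rose and 1 fell. None of the 7 fell in the other comparisons. Their median log2 fold changes were 1.29 in KO against WT under FAC, 1.07 under AC, 0.34 with FAC in KO and −0.14 with FAC in WT.

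Of the 4 histidine genes, all 4 rose in KO under FAC and 2 (Hal and Uroc1) under AC. Amdhd1, the imidazolonepropionase after Uroc1, rose with FAC in KO (0.85 ± 0.18, edgeR adjusted p = 0.00347) and was higher in KO under FAC (0.90 ± 0.18, edgeR adjusted p = 0.000991), with 0.14 ± 0.19 under AC. Ftcd, the last enzyme, fell with FAC in WT by 0.65 ± 0.17 (edgeR adjusted p = 0.0199), a call lost without WT AC 2, WT FAC 4 or WT FAC 5 (edgeR adjusted p = 0.0786, 0.0894 and 0.0653). Hal and Amdhd1 were the 2 of 4 that rose with FAC in KO, and Ftcd the 1 of 4 that passed in WT. The median log2 fold changes of the 4 were 2.18 in KO against WT under FAC, 1.20 under AC, 0.66 with FAC in KO and −0.28 with FAC in WT.

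The tryptophan and kynurenine genes moved in both directions. Of 11 tested, 8 rose and 1 fell in KO under FAC, 3 rose and 2 fell in KO under AC, 3 rose and 1 fell with FAC in KO, and 2 rose and 3 fell with FAC in WT. The counts in KO under AC and with FAC in KO were near the shares of all tested genes (42.9% and 29.6%). Haao, the iron-dependent dioxygenase that makes the precursor of quinolinate, averaged 20.5 ± 2.0 CPM in KO FAC, 7.93 ± 0.69 in KO AC, 0.992 ± 0.281 in WT FAC and 0.509 ± 0.128 in WT AC (SD, n = 3 each). It was 20.6-fold higher in KO under FAC and 15.4-fold under AC (4.36 ± 0.18 and 3.95 ± 0.21, edgeR adjusted p = 3.99e-10 and 6.78e-09), and 2.59-fold higher with FAC in KO (1.37 ± 0.14, edgeR adjusted p = 2.54e-05). In WT its rise of 0.96 ± 0.28 with FAC (edgeR adjusted p = 0.0333) was lost when AC 1, AC 2, FAC 4 or FAC 5 of WT was left out (edgeR adjusted p = 0.108, 0.102, 0.208 and 0.0698), and when WT libraries were fitted alone (edgeR adjusted p = 0.0595). Kynu, kynureninase, went against Tdo2 and Haao: it fell with FAC by 1.24 ± 0.23 in KO and 1.59 ± 0.24 in WT on the log2 scale (edgeR adjusted p = 0.002 and 0.000833).

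Acmsd, whose enzyme diverts the kynurenine route away from NAD, fell with FAC in WT by 1.72 ± 0.34 (edgeR adjusted p = 0.00368) and had 0.86 ± 0.34 in KO (edgeR adjusted p = 0.0705), on 114 reads in KO FAC, 67 in KO AC, 51 in WT FAC and 174 in WT AC over 3 libraries each. The FAC effects on Acmsd differed by 2.58 ± 0.48 (KO minus WT, edgeR adjusted p = 0.0148). Acmsd was higher in KO than in WT under FAC (1.27 ± 0.35) and lower under AC (−1.31 ± 0.32, edgeR adjusted p = 0.00855 and 0.00559). Its KO FAC reads were uneven, at 24, 26 and 64, with the 64 in KO FAC 6. Ido2, a dioxygenase that acts on tryptophan, rose in KO under FAC (1.91 ± 0.50, edgeR adjusted p = 0.00598), on 77 reads in KO FAC and 22 in WT FAC. Kyat3, which transaminates kynurenine, was the member of this list that was lower in KO under both treatments (−0.70 ± 0.18 under FAC and −0.75 ± 0.18 under AC, edgeR adjusted p = 0.00597 and 0.0051). The list's median log2 fold changes were 1.18 in KO against WT under FAC, 0.45 under AC, 0.42 with FAC in KO and −0.25 with FAC in WT. The 7 listed iron- or haem-dependent amino acid oxygenases, which include Hpd, Hgd and Tdo2, had 6 tested genes. Of these, 4 rose in KO under FAC and 4 under AC with none lower, 3 rose with FAC in KO, and 3 rose and 1 (Hgd) fell with FAC in WT.

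**Figure D3:**
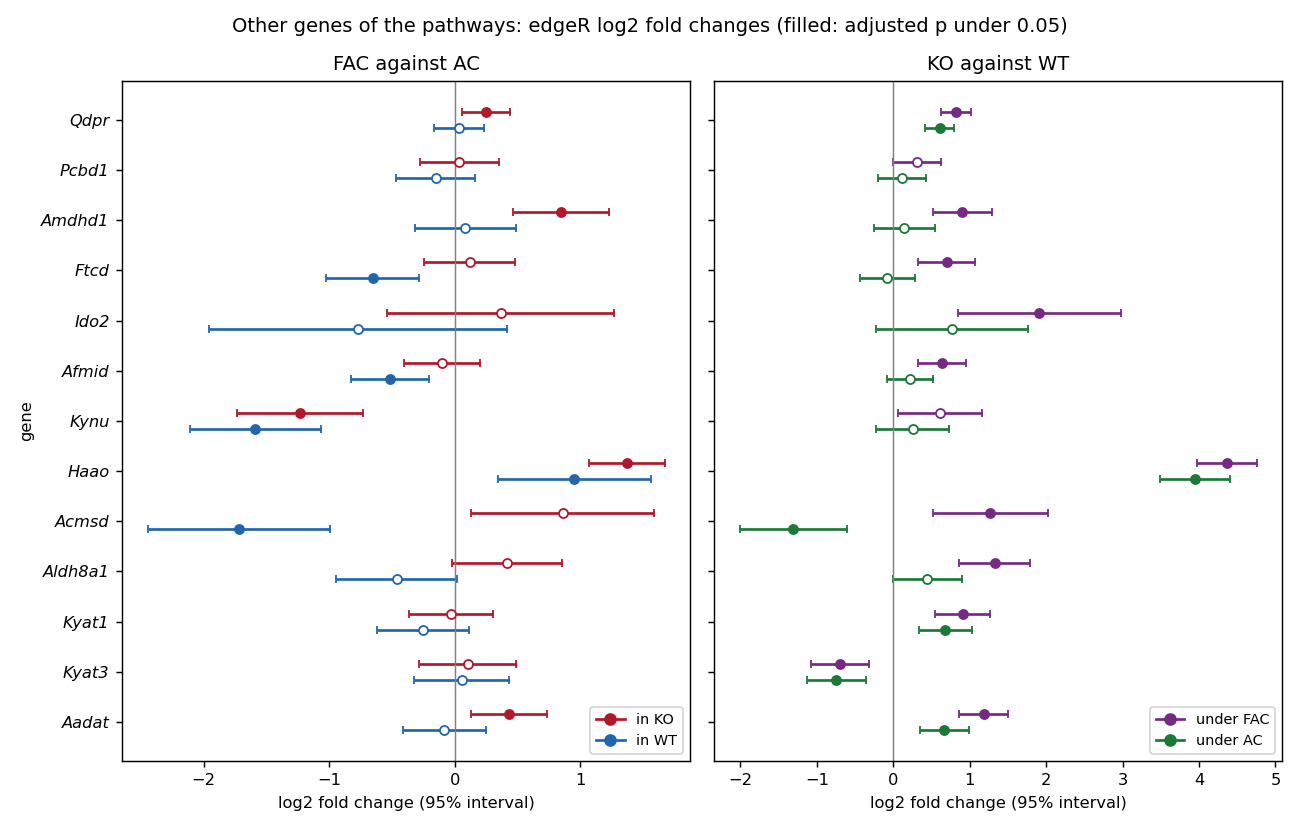
Log2 fold changes (x axis, points with 95% intervals) of the 13 other tested genes of the phenylalanine, tyrosine, histidine and tryptophan pathways, laid out as for the members, with filled points at an edgeR adjusted p under 0.05. Haao is the farthest right in the KO comparison (4.36 under FAC), and Kynu lies left of 0 with FAC in both genotypes (−1.24 in KO, −1.59 in WT).

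Likeness to other genes was measured as the root mean square difference of centred log2 CPM over the 12 libraries. In this description most of the variation is that between KO and WT for most members, but that between FAC and AC for Tdo2. Hal lay nearest to Gnmt (0.432), Bhmt (0.479) and Hpd (0.509), and Hpd to Akr1c6 (0.240), Gnmt (0.257) and Arg1 (0.269). Gnmt and Bhmt encode enzymes of methionine and methyl group metabolism, and Arg1 the arginase of the urea cycle. Tat lay nearest to Fxyd1, Cyp2d9 and Cyp2e1 (0.216 to 0.220), Uroc1 to Mmd2, Dmgdh and Ldhd (0.248 to 0.301), and Hgd to Scd1, Mat1a and Ppil6 (0.308 to 0.318). Fah lay nearest to Shisa5, Abhd14b and S100a1 (0.086 to 0.102), Gstz1 to Sdc2, Tmem205 and Sult1d1 (0.0752 to 0.0865), Kmo to Pipox, Slc27a2 and E2f2 (0.156 to 0.178), and Tdo2 to Camk1, Bex3 and Btc (0.136 to 0.220). The members' own spread around their means on this scale was between 0.345 (Gstz1) and 2.60 (Hal).

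Some markers of other liver cell types also differed between the genotypes. Over all tested genes, 49.5% passed in KO against WT under FAC and 42.9% under AC, in either direction. The summed FPKM of 10 endothelial markers ranged from 5.36 to 6.52 in KO FAC, 6.96 to 7.76 in KO AC, 12.4 to 13.8 in WT FAC and 9.93 to 11.2 in WT AC libraries, and 6 of 9 tested were lower and 1 higher in KO under each treatment. The sum of 9 stellate and fibroblast markers ranged from 0.55 to 0.75 in KO FAC, 0.85 to 1.01 in KO AC, 2.63 to 3.11 in WT FAC and 3.48 to 4.42 in WT AC, and 5 of 6 tested were lower in KO under each treatment. The sum of 7 cholangiocyte markers ranged from 83.6 to 102 in KO FAC, 53.9 to 63.7 in KO AC, 258 to 296 in WT FAC and 308 to 314 in WT AC, and was mostly Spp1 (59.8, 40.3, 267.8 and 296.3 mean FPKM in the same order). In this list 2 of 4 tested genes were higher in KO under FAC and 0 under AC, and 1 (Spp1) was lower under each. Under AC this was a smaller share than that of all tested genes.

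The sum of 11 macrophage markers ranged from 627 to 714 in KO FAC, 495 to 610 in KO AC, 603 to 650 in WT FAC and 341 to 400 in WT AC, nearly all of it Cd68, and 3 of 5 tested were lower and 1 (Cd68) higher in KO under each treatment. The sum of 4 lymphocyte markers was at most 0.16 FPKM in any library, and none was tested. Of 9 hepatocyte markers, 6 were higher in KO under each treatment, and 1 was lower under FAC and 2 under AC. With FAC, 7 of the 9 rose and none fell in KO, and 6 rose and 1 fell in WT. Of all tested genes, 29.6% passed with FAC in KO and 17.2% in WT, in either direction. Also with FAC, the 9 tested endothelial markers had 0 edgeR calls in KO (2 at an unadjusted p under 0.05 and 1 by DESeq2) and 3 higher in WT, the macrophage markers 1 higher in KO and 1 higher and 2 lower in WT, the stellate and fibroblast markers 1 lower in each genotype, and the cholangiocyte markers 2 higher in KO and 0 edgeR calls in WT (0 at an unadjusted p under 0.05 and 0 by DESeq2). The part of these cells in the members' values was not tested, and in bulk RNA fewer cells that express a gene and less of its RNA per cell cannot be told apart.

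**Figure D4:**
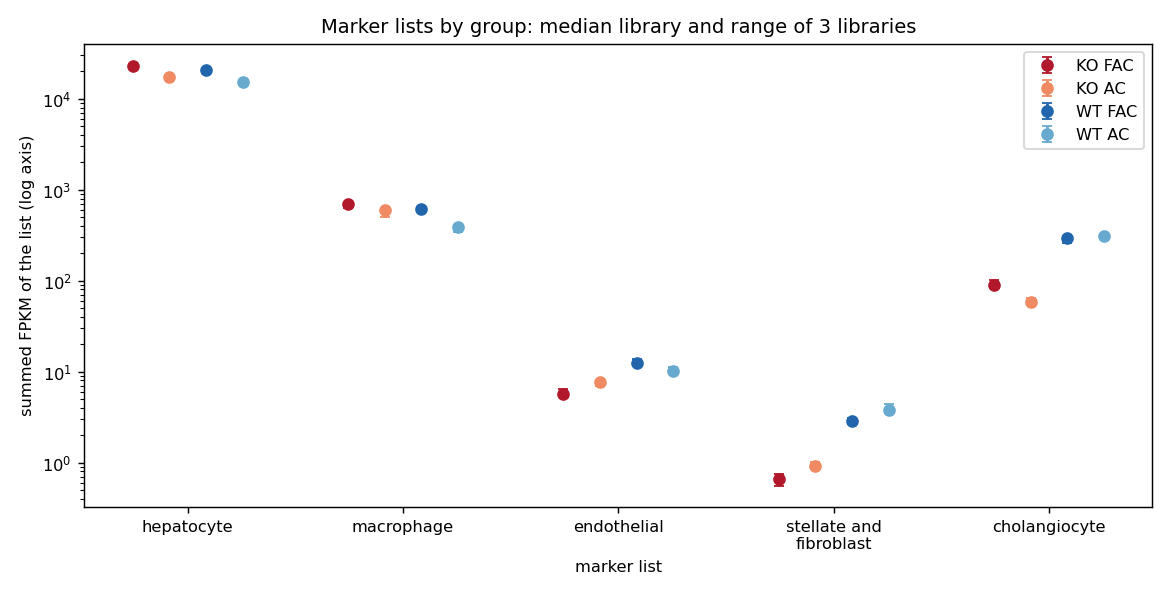
Summed FPKM of 5 marker lists (y axis, log scale) by group, with the median library as a point and the range of 3 libraries as a bar. The endothelial, stellate and fibroblast, and cholangiocyte sums are lower in the KO groups than in the WT groups, and the hepatocyte sums are higher in the FAC groups than in the AC groups.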

How the data were processed

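RNA of 12 libraries was prepared for BGISEQ-500 sequencing, per the labels' protocols. The tool RSEM and the builds mm10 and GRCm38.p6 are named, per the submitters' processing notes. Which aligner, annotation, strand setting and filters were used is not given in the sources used here. For each gene in each library the authors deposited an estimated count, not normalized, together with FPKM and TPM values, which also take account of gene length. Columns were assigned to libraries by sample title. The authors' deposited group means were used only to check that assignment.

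Estimated counts were rounded and scaled by TMM, and edgeR 4.0.16 (R 4.3.3) was the main tool. After filterByExpr (minimum count 10) 12275 genes remained and 4453 had been removed. Quasi-likelihood fits over the 4 groups used trended dispersion and robust estimation, 5 contrasts were tested, and p-values were adjusted by Benjamini-Hochberg over all tested genes. The SE is the absolute log2 fold change divided by the square root of the F statistic. The precision of a value is set by the number of reads behind it and by 3 libraries per group, and the biological coefficient of variation was 10.8%.

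The members and the 17 gene lists were chosen with earlier results of these data known, and 1 gene of these lists is not reported here. The members and Nr1h4 are named in every comparison, with up to 3 called genes of largest fold per pathway or factor list and comparison, and the 3 genes nearest to each member (log2 CPM with a prior count of 2). Marker lists are given by counts and sums. Alternatives were DESeq2 1.42.0, other scalings and filters, limma 3.58.1 on log2 FPKM and TPM, pairs of groups alone, the replicate number as a block, and libraries left out. Positions and promoters are RefSeq's for GRCm38.p6, gene overlaps are from GENCODE M21, and figures were drawn with matplotlib 3.10.9.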

Additional observations from a re-analysis of the deposited data

Results flagged for a closer look

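Among the named genes, 8 had a FAC effect that differed between KO and WT cells by the test of the difference itself (edgeR, KO minus WT, adjusted over all tested genes). Of all tested genes, 3.15% passed this test. Apart from the members and Nr1h4, list genes were named because they passed, up to 3 per list and comparison, without the marker lists. The 8 are therefore not a count out of all listed genes. Hgd, the member among the 8, differed by 1.43 ± 0.29 (SE, edgeR adjusted p = 0.0228), with the dependence on single libraries given above. Acmsd differed by 2.58 ± 0.48 (edgeR adjusted p = 0.0148) and passed in each fit that left out 1 library.

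The other genes flagged by this test lie outside the pathways. Mat1a, which makes S-adenosylmethionine, had 0.56 ± 0.09 with FAC in KO and −0.64 ± 0.10 in WT, a difference of 1.20 ± 0.14 (edgeR adjusted p = 0.000791). Cps1, of the urea cycle, had 0.67 ± 0.13 in KO and −0.51 ± 0.16 in WT, a difference of 1.18 ± 0.21 (edgeR adjusted p = 0.0106). Aldh6a1, of valine breakdown, had 0.42 ± 0.08 in KO and −0.44 ± 0.09 in WT, a difference of 0.85 ± 0.12 (edgeR adjusted p = 0.00389). Dmgdh, of choline breakdown, had 0.35 ± 0.09 in KO and −0.37 ± 0.11 in WT, a difference of 0.72 ± 0.15 (edgeR adjusted p = 0.0215), which was lost without AC 3, FAC 4 or FAC 5 of WT or AC 2 of KO (edgeR adjusted p = 0.0528, 0.0573, 0.0677 and 0.052), with the replicate number as a block (edgeR adjusted p = 0.0546) and with limma on log2(TPM + 1) (limma adjusted p = 0.0625). Sgk1, a glucocorticoid-responsive kinase gene, had 1.23 ± 0.21 in KO and −0.29 ± 0.19 in WT, a difference of 1.52 ± 0.29 (edgeR adjusted p = 0.0166), lost without WT AC 3 (edgeR adjusted p = 0.0528) and with the replicate number as a block (edgeR adjusted p = 0.0637). Cyp1a2, a pericentral cytochrome P450 gene, had 0.43 ± 0.07 in KO and −0.06 ± 0.08 in WT, a difference of 0.49 ± 0.10 (edgeR adjusted p = 0.0275), which was lost in 7 of 12 fits that left out 1 library (without AC 2, AC 3, FAC 4, FAC 5 or FAC 6 of WT, or AC 2 or FAC 5 of KO, adjusted p up to 0.0751), with the replicate number as a block (edgeR adjusted p = 0.098) and with limma on log2(TPM + 1) (limma adjusted p = 0.0522).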

How the results depend on the processing

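Of 854 values of the members under alternatives, 801 kept their direction and side of the threshold, 12 no longer passed, 30 newly passed and 11 changed sign. The 11 were of values that did not pass: the FAC effect on Kmo in WT (−0.28 to 0.014 with 1 library left out, above 0 without WT AC 2), on Fah in KO (−0.0095 and −0.0097 with pseudocounts of 1 and 0.1 on FPKM, −0.11 with TPM), and the difference for Tdo2 (−0.20 to 0.19 with 1 library left out, above 0 without AC 2 or FAC 6 of WT and without AC 1, FAC 4 or FAC 5 of KO, 0.27 with KO AC 1 and FAC 4 both left out, and 0.021 with KO AC 1 and FAC 6 both left out). The number of members whose difference of FAC effects passed was 1, and 2 with DESeq2, 0 to 2 with 1 library left out, 4 with KO AC 1 and FAC 4 both left out, and 2 with KO AC 1 and FAC 6 both left out. The other counts of members, in either direction, stayed within 1.5 times. For KO against WT, 8 (FAC) and 6 (AC) became 6 and 5 with a filter of FPKM at least 5, which removed Uroc1 and Kmo. They became up to 9 and 7 in other fits. The 9 include Tdo2, which was lower in KO in every fit (−0.48 to −0.18 under FAC and −0.46 to −0.10 under AC over the alternatives). Tdo2 passed in KO against WT under FAC with limma on log2(FPKM + 1) (−0.41), on log2(FPKM + 0.1) (−0.41) and on log2(TPM + 1) (−0.48). The medians of all genes in these fits were also below 0, at −0.105, −0.137 and −0.17. Fah passed with FAC in WT under the same 3 (−0.18, −0.18 and −0.26), where the medians of all genes were −0.033, −0.045 and −0.101.

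Same-numbered KO and WT libraries had correlations from −0.142 to 0.208, and the main fits did not pair them. These correlations cannot exclude shared mice or cultures. Pairing of FAC with AC libraries within a genotype was not checked. With the replicate number as a block, the Hgd difference was 1.45 (edgeR adjusted p = 0.0787). For the difference, 0 members passed, and 84 genes passed against 387. With this block the counts of members in KO against WT were 8 under FAC and 6 under AC. Over all genes, the FAC calls in KO numbered 3633, against 2199 with KO libraries fitted alone and 2371 (without KO AC 3) to 4095 (without KO AC 1) with 1 library left out. In WT they numbered 2117, against 3345 with WT libraries fitted alone and 1250 (without WT FAC 5) to 1656 (without WT AC 2) with 1 library left out. The difference had 387 calls, 678 with DESeq2, 584 with limma on log2(FPKM + 1), 1918 with KO AC 1 and FAC 4 both left out, and 95 (without WT AC 3) to 643 (without KO FAC 4) with 1 library left out. With limma on log2(TPM + 1), which changes the tool, the scaling and the pseudocount at once, the median of all genes was −0.17 (KO under FAC), −0.11 (KO under AC), −0.15 (FAC in KO) and −0.10 (FAC in WT), against −0.01 to 0.00 (rounded) with edgeR, and the share of calls that were higher was 28.2%, 32.2%, 18.5% and 22.9%, against 49.7%, 50.7%, 50.6% and 50.4% with edgeR in the same order. With log2(FPKM + 1) these shares were 34.9%, 37.9%, 33.9% and 41.3%. Precision is limited most for Uroc1, with 7 to 10 reads in WT FAC libraries, and for Hal, with 19 to 41 in WT AC libraries.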

Other observations

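The counts below stand against 49.5% of all tested genes that passed in KO against WT under FAC, 42.9% under AC, 29.6% with FAC in KO and 17.2% with FAC in WT, in either direction. By the same edgeR test, of 35 tested genes of other amino acid breakdown 21 rose and 6 fell in KO under FAC, 18 rose and 8 fell under AC, 12 rose and 3 fell with FAC in KO, and 6 rose and 10 fell with FAC in WT. Gnmt and Bhmt, of methionine metabolism, were higher in KO by 5.05 ± 0.15 and 5.31 ± 0.20 under FAC and by 4.76 ± 0.16 and 4.71 ± 0.21 under AC. Both also rose with FAC in KO (1.19 ± 0.12 and 1.10 ± 0.15), and Gnmt did so in WT (0.90 ± 0.18). Sds, serine dehydratase, was higher in KO by 5.36 ± 0.34 under FAC and 3.44 ± 0.31 under AC, against only 5 reads in WT FAC and 11 in WT AC over 3 libraries. Aass, of lysine breakdown, fell with FAC in KO by 1.01 ± 0.13, and Gpt2 and Aldh4a1 fell with FAC in WT by 0.94 ± 0.11 and 0.72 ± 0.12. Among 6 NAD synthesis genes, Nmnat3 (1.09 ± 0.22) and Naprt (0.65 ± 0.15) rose in KO under FAC, and Nadsyn1 was lower in KO under AC (−0.71 ± 0.13) and under FAC (−0.35 ± 0.13). With FAC, 2 of the 6 rose in KO (Nmnat3, 0.64 ± 0.21, and Nadsyn1, 0.46 ± 0.13) and 0 passed in WT (edgeR; 0 at an unadjusted p under 0.05 and 0 by DESeq2). The calls of Nmnat3 and Nadsyn1 with FAC in KO were lost in 4 of 6 and 2 of 6 fits that left out 1 library (adjusted p up to 0.0979 and 0.079), and that of Nadsyn1 under FAC in 5 of 6 (up to 0.149).

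Periportal and pericentral hepatocyte genes were both mostly higher in KO. Of 13 periportal genes, among them Hal, 10 rose in KO under each treatment with none lower, 9 rose and 2 fell with FAC in KO, and 3 rose and 1 fell in WT. Arg1 was higher in KO under AC by 4.59 ± 0.15, and Pck1 had 351 reads in KO FAC, 179 in KO AC, 10 in WT FAC and 4 in WT AC over 3 libraries. Pck1 and Sds, both among the genes that rose, passed the filter on low counts only through KO libraries. For such genes the filter itself favours a rise in KO. Cyp2f2 and Etnppl rose with FAC in KO (1.15 ± 0.13 and 1.09 ± 0.19). In WT Cyp2f2 (0.73 ± 0.18), Arg1 (0.63 ± 0.19) and Etnppl (0.58 ± 0.18) also passed, but these calls were lost in 1, 5 and 5 of 6 fits that left out 1 library (adjusted p up to 0.0591, 0.251 and 0.165). Of 12 tested pericentral genes, 10 rose in KO under each treatment with none lower. Cyp2e1 and Rgn were higher by 3.12 ± 0.09 and 2.45 ± 0.14 under FAC and by 2.68 ± 0.09 and 2.22 ± 0.15 under AC, Slc1a2 by 1.78 ± 0.18 under AC, and Lgr5 had 80 reads in KO FAC and 11 in WT FAC. With FAC, 6 of the 12 rose and 1 fell in KO, Cyp2e1 by 0.78 ± 0.08, Rgn by 0.67 ± 0.13 and Lgr5 by 2.02 ± 0.49 on 21 reads in KO AC (2.81 without KO AC 1). In WT 1 rose (Cyp2e1, 0.34 ± 0.08) and 2 fell (Glul, −0.55 ± 0.13, and Oat, −0.30 ± 0.07), and the calls of Cyp2e1 and Oat were lost in 2 and 1 of 6 fits that left out 1 library (adjusted p up to 0.0619 and 0.0557).

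Of 13 glucocorticoid-responsive liver genes, a list that includes Tat and Tdo2, 6 rose and 1 fell in KO under FAC, 6 rose and 3 fell under AC, 6 rose and 1 fell with FAC in KO, and 1 (Tdo2) rose with FAC in WT. Mt1, a metallothionein gene, rose with FAC in KO (1.07 ± 0.13) and was higher in KO under FAC (1.14 ± 0.13), and Per1, a clock gene, was higher in KO under AC (1.44 ± 0.30). Pck1 rose with FAC in KO (1.08 ± 0.31, lost in 3 of 6 fits that left out 1 library, adjusted p up to 0.0669). Of 16 tested liver transcription factor genes, 3 rose and 2 fell in KO under each treatment, 5 fell with FAC in KO and 4 fell with FAC in WT. In KO against WT these are smaller shares than those of all genes. With FAC in KO the share in either direction is near that of all genes. None of the factor genes rose with FAC, however, and of all tested genes only 14.6% fell with FAC in KO and 8.55% in WT. Nr1i3, which encodes the receptor CAR, had 68.1 reads in KO FAC, 52.1 in KO AC, 7.05 in WT FAC and 8.01 in WT AC over 3 libraries. It too passed the filter on low counts only through KO libraries. Foxa3 was higher in KO under AC (0.90 ± 0.13). Nr1h4 fell with FAC by 0.88 ± 0.16 in KO and 0.95 ± 0.14 in WT, and Nr5a2 by 0.87 ± 0.13 in KO. Nr5a2 was also lower in KO under FAC (−0.67 ± 0.13). Further falls with FAC were Foxa1 in KO (−0.39 ± 0.12) and Nr5a2 (−0.44 ± 0.12) and Cebpa (−0.43 ± 0.12) in WT, lost in 3, 6 and 4 of 6 fits that left out 1 library (adjusted p up to 0.0806, 0.109 and 0.0894).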
